A study of Mus musculus with 32 samples.

Results

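The genes described here are 10 cyclic nucleotide phosphodiesterases, Pde10a, Pde2a, Pde1a, Pde1b, Pde3a, Pde4b, Pde4d, Pde5a, Pde7b and Pde8b, chosen by symbol from the 22337 genes of the deposited tables. Phosphodiesterases hydrolyse the second messengers cAMP and cGMP and so end the signals that adenylyl and guanylyl cyclases start. Pde10a, Pde2a and Pde3a can act on both cAMP and cGMP, and Pde1a and Pde1b need calcium and calmodulin. Pde4b, Pde4d, Pde7b and Pde8b are specific for cAMP, and Pde5a is specific for cGMP. Pde10a is best known from striatal projection neurons, Pde2a from forebrain neurons and endothelium, and Pde5a from vascular smooth muscle.

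The study compares male C57BL/6J mice of 6 months: wild-type littermates (WT), 5xFAD mice handled alike under anesthesia but lit with indoor light only, and 5xFAD mice given near-infrared light through the skull (5xFAD+L). The 5xFAD transgenes are driven by Thy1 sequence and so expressed mainly in neurons. Hippocampus was sampled from 4 mice of each group, meninges from 4 WT, 3 5xFAD and 3 5xFAD+L mice, and lymphatic endothelial cells (LECs) sorted from meninges as DAPI-negative, CD45-negative, CD31-positive and PDPN-positive cells from 4, 3 and 3 mice. Each of the 32 samples is from 1 mouse.

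The labelled tissues were checked with marker genes. All 7 neuron markers were at 1 FPKM or more in all 12 hippocampus samples, with sums of 2756 to 4178 FPKM and Camk2a as the most abundant. The meninges samples held choroid plexus epithelium, with all 6 markers present and sums of 15792 to 49647 FPKM, nearly all of it Ttr, as well as all 5 fibroblast markers (sums of 840 to 1981 FPKM, led by Dcn) and 6 to 8 of the 8 pinealocyte markers (sums of 273 to 1686 FPKM, led by Sag in 9 samples and by Tph1 in WT replicate 1). Neuron markers were present there too, at 93.6 to 511 FPKM in sum, led by Snap25. Choroid plexus markers also differed widely among the hippocampus samples: their sums were 114, 2826, 411 and 36.6 FPKM in WT, 3222, 2944, 698 and 208 in 5xFAD and 131, 116, 63.8 and 245 in 5xFAD+L.

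The sorted LEC libraries held all 6 blood endothelial markers in each sample, with sums of 1334 to 3402 FPKM, led by Cldn5 or Vwf. The sums of the 7 lymphatic markers were 6736, 38.0, 4353 and 55.7 FPKM in WT, 1156, 1684 and 4490 in 5xFAD and 9718, 3079 and 8755 in 5xFAD+L, most of it Ccl21a wherever the sum was above 1000. In WT replicates 2 and 4 the lymphatic sums were the lowest, Ccl21a was at 3.54 and 0 FPKM, and Lyve1 and Pdpn were at 0. Prox1, which defines the lineage, was at 0 in WT replicates 1 and 2 and in 5xFAD replicate 2, and Pdpn, a sorting marker, was also at 0 in 5xFAD replicates 2 and 4. Ptprc, which encodes CD45, was at 0 in all 10 libraries, and so were the 8 pinealocyte and 6 skeletal muscle markers. Markers of other cell types were present at widely differing levels. Their sums were 0.19 to 625 FPKM for smooth muscle and pericytes and 0 to 70.2 for macrophages and leukocytes. In all 10 libraries there were markers of fibroblasts (14.0 to 612). Choroid plexus markers summed to 76.4 to 797, led by Aqp1 in 9 of 10. Of this list only Aqp1 and Ttr were abundant enough to test in LECs. A sum led by Aqp1 alone does not identify choroid plexus epithelium. Lymphatic markers are thus low in WT replicates 2 and 4, though Prox1 was at 5.71 FPKM in WT replicate 4 and Flt4 at 34.4 and 30.3 in these 2, while blood endothelial markers are present in all 10.

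In WT hippocampus, Pde2a was the most abundant member, at a mean of 100.8 FPKM, followed by Pde1a at 62.0, Pde4b at 27.9, Pde1b at 24.5, Pde8b at 10.3, Pde4d at 7.65, Pde10a at 6.23 and Pde7b at 3.68. Among neighbours in this order, only the ranges of Pde4b and Pde1b, those of Pde4d and Pde10a, and those of Pde5a (mean of 0.355) and Pde3a (0.210) overlapped. Pde5a and Pde3a stayed below 1 FPKM in every hippocampus sample and were not tested there.

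WT meninges had a flatter order. Pde4d (mean of 14.2 FPKM), Pde4b (13.1), Pde1a (12.6) and Pde7b (12.4) came highest, then Pde8b (9.67), Pde2a (6.63), Pde10a (5.47), Pde5a (4.41) and Pde1b (3.60), each overlapping its neighbour, and Pde3a (1.10) stood lowest and apart. The order of WT sorted LECs comes from a table that was normalized separately, so its levels are not compared with the other tissues by a test. There, Pde4b (437) and Pde2a (172) overlapped each other and stood far above Pde7b (5.54), Pde3a (3.88), Pde1a (3.22), Pde4d (3.13), Pde10a (1.76) and Pde5a (0.278), whose neighbours all overlapped, while Pde1b and Pde8b had no read in any of the 10 libraries. Pde7b, Pde4d, Pde3a, Pde1a, Pde10a and Pde5a were each at 0 in at least 1 of the 4 WT LEC libraries.

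**Figure D1:**
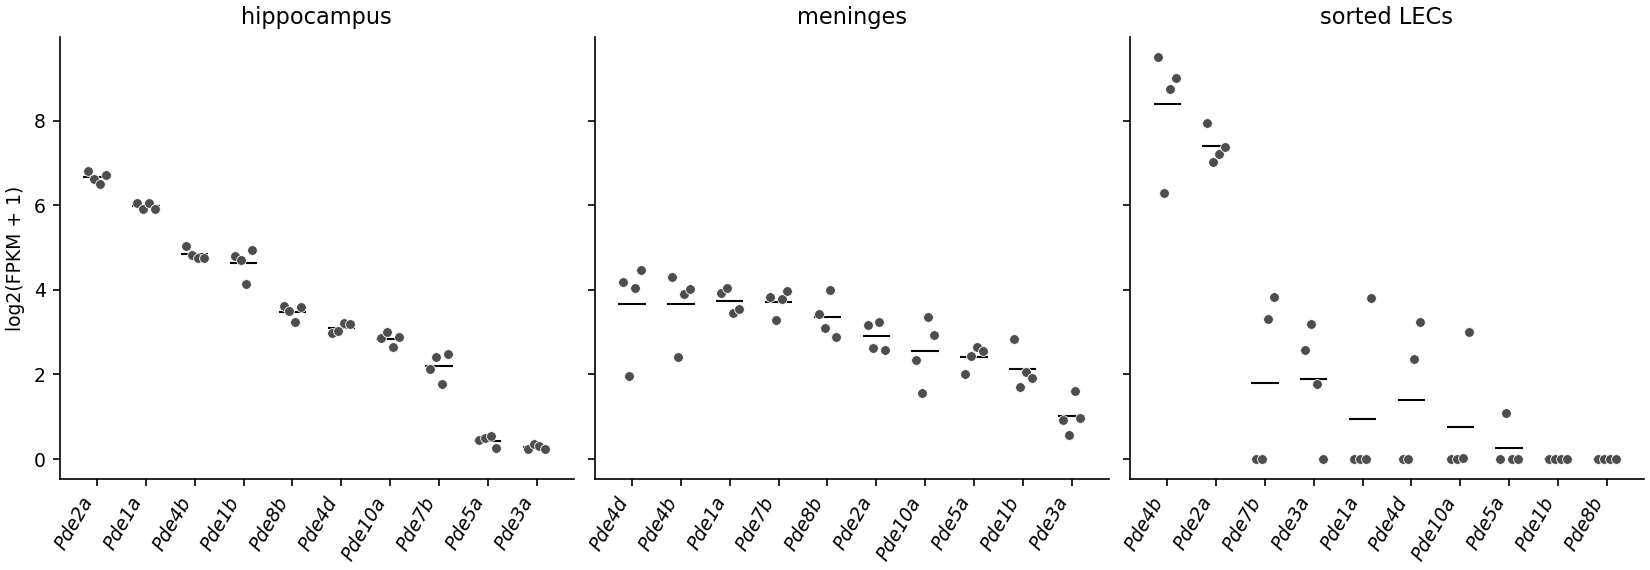
Levels of the 10 phosphodiesterases in WT samples. Each dot is 1 mouse and each bar a group mean of log2(FPKM + 1). Genes are ordered by mean FPKM within each tissue. The sorted LECs come from a separately normalized table.

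Between the 2 WT tissues of the shared table, 9 of the 10 members could be tested, and 6 passed an adjusted p below 0.05 with at least a 2-fold difference in edgeR, next to 50.0% of all 14144 tested genes. Pde5a (log2 fold change of 3.58 ± 0.28, adjusted p = 1.6e-06) and Pde7b (1.68 ± 0.19, adjusted p = 2.0e-05) were higher in meninges. Pde2a (-3.98 ± 0.21, adjusted p = 1.6e-07), Pde1b (-2.71 ± 0.31, adjusted p = 1.9e-05), Pde1a (-2.66 ± 0.15, adjusted p = 1.8e-07) and Pde4b (-1.07 ± 0.36, adjusted p = 0.020) were lower there. The Pde4b call is lost, under the 2-fold threshold, with a filter at a mean of 5 FPKM (-0.98) and without WT meninges replicate 2 (-0.77), its lowest sample. Pde10a was also lower in meninges, by less than 2-fold in edgeR (-0.92 ± 0.30, adjusted p = 0.019) and DESeq2 (-0.91, adjusted p = 0.0079). However, its WT ranges overlapped and limma gave -0.30 (adjusted p = 0.42). Pde4d (0.98 ± 0.48, adjusted p = 0.092) and Pde8b (-0.17 ± 0.21, adjusted p = 0.48) did not pass. Past the thresholds and higher in meninges were all 8 smooth muscle and pericyte markers (median log2 fold change of 3.46), but also all 6 blood endothelial (2.91), all 6 choroid plexus (4.75) and all 7 tested pinealocyte markers, 4 of 5 fibroblast (5.51) and 6 of 7 macrophage and leukocyte markers (4.61), so Pde5a is not tied to 1 of these cell types here. All 7 neuron markers passed and were lower there. In whole tissue, fewer cells of a type and less RNA per cell cannot be told apart.

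Counts of members past the thresholds were low in every comparison of the 3 groups, and nothing is read from them beyond the numbers. In hippocampus, 0 of 8 tested members passed in edgeR for 5xFAD versus WT, 5xFAD+L versus 5xFAD and 5xFAD+L versus WT, next to 4.28%, 0.270% and 2.36% of 12981 tested genes. Unadjusted p was below 0.05 for 0, 4 and 2 of the 8, against 24.0%, 18.3% and 16.7% of all tested genes, and 0 of the 8 passed in DESeq2 (4.77%, 1.48% and 3.02% of all genes) or limma (2.45%, 0.254% and 1.43%). In meninges, 0 of 10 passed in edgeR in these comparisons, next to 0%, 0.0140% and 0.0140% of 14318 genes, with unadjusted p below 0.05 for 0, 1 and 3 (4.01%, 12.7% and 16.4% of all genes). DESeq2 passed 0, 1 and 2 members there (0%, 0.503% and 2.60% of all genes) and limma 0 in each (0%, 0.00698% and 0.0210%). In sorted LECs, 0, 0 and 1 of 7 passed in edgeR, next to 0%, 0% and 0.0122% of 8188 genes, with unadjusted p below 0.05 for 1 member in each (3.81%, 4.01% and 6.72% of all genes). DESeq2 passed 0, 1 and 1 members there (2.22%, 4.16% and 5.59% of all genes) and limma 0, 0 and 1 (0%, 0% and 0.0366%). The member of the last count is Pde2a, which was listed with these LEC results known, so its call is not independent evidence.

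Pde10a in hippocampus was at 6.21, 7.01, 5.30 and 6.40 FPKM in WT, 4.04, 4.72, 6.27 and 4.70 in 5xFAD and 7.79, 6.74, 5.09 and 5.48 in 5xFAD+L. It was lowest in 3 of the 4 untreated 5xFAD samples, and the ranges of the 3 groups overlapped. Log2 fold changes were -0.24 ± 0.15 for 5xFAD versus WT (adjusted p = 0.36), 0.45 ± 0.15 for 5xFAD+L versus 5xFAD (adjusted p = 0.15) and 0.21 ± 0.15 for 5xFAD+L versus WT (adjusted p = 0.51), and none passed. Of the 5 tested striatal projection neuron markers, 1 passed for 5xFAD versus WT in edgeR (Drd1, 2.26 ± 0.57, adjusted p = 0.026), 2 in DESeq2 and 0 in limma, while Ppp1r1b, the most abundant of them in every hippocampus sample, had 0.34 ± 0.14 (adjusted p = 0.17) and Rgs9 -0.14 ± 0.14 (adjusted p = 0.61).

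In meninges, Pde10a was at 4.07, 1.97, 9.22 and 6.61 FPKM in WT, 4.18, 4.00 and 3.41 in 5xFAD and 0.94, 0.48 and 0.82 in 5xFAD+L. All 3 light-treated samples lay below every sample of the other groups, which overlapped each other. Read counts were 62, 45 and 43 with light, against 127 to 325 in the other samples. The log2 fold changes, -2.37 ± 0.42 for 5xFAD+L versus 5xFAD and -2.35 ± 0.41 for 5xFAD+L versus WT, are given as description only, because Pde10a was known from these meninges samples when the genes were listed. Pde10a passes in DESeq2 in these 2 comparisons and in limma in neither. In edgeR it does not pass with the main settings, and for 5xFAD+L versus WT it passes with no filter or without WT replicate 2, so the call depends on the tool, the filter and the samples kept. Beside it, the neuron marker Camk2a was at 47.0, 11.1, 22.7 and 11.2 FPKM in WT, 17.0, 18.3 and 12.4 in 5xFAD and 3.06, 7.25 and 6.20 in 5xFAD+L, so it too was lowest in all 3 light-treated samples, as was Slc17a7 in part (2.04, 4.14 and 1.19 with light, 2.73 to 11.5 without). Neither passed in edgeR or limma, and both passed in DESeq2 for 5xFAD+L versus WT, as Pde10a did. All 7 neuron markers had negative values for 5xFAD+L versus WT (median of -1.61 against 0.01 for all genes) and 5 of 7 for 5xFAD+L versus 5xFAD (median of -0.70 against 0.04). Their sums overlapped, at 112 to 382 FPKM with light, 93.6 to 255 in untreated 5xFAD and 168 to 511 in WT, with Snap25, the most abundant, at log2 fold changes of 0.31 ± 0.46 versus 5xFAD and -0.04 ± 0.43 versus WT.

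Pde10a was near the floor of the sorted LEC libraries, at 0, 0, 0.01 and 7.04 FPKM in WT, 1.11, 3.86 and 0 in 5xFAD and 0.64, 0 and 0 in 5xFAD+L. Most values were at or near 0, and the groups overlapped.

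Pde2a in sorted LECs was at 245, 129, 148 and 166 FPKM in WT, 28.8, 120.0 and 43.3 in 5xFAD and 2.95, 5.25 and 4.49 in 5xFAD+L. The 3 groups did not overlap: every 5xFAD library lay below every WT library, and every light-treated library below every untreated 5xFAD library. By level it ranked 387 to 841 among the genes of the WT libraries and 4663 to 5719 among those of the light-treated libraries, where 205 to 529 reads remained of 9216 to 21806 in WT. Log2 fold changes were -1.61 ± 0.61 for 5xFAD versus WT, -3.85 ± 0.69 for 5xFAD+L versus 5xFAD and -5.46 ± 0.74 for 5xFAD+L versus WT, again as description only, because the listed genes were named with these LEC results known. The call for 5xFAD+L versus WT is lost when any WT or light-treated library other than WT replicate 3 is left out, while the log2 fold change stays at -5.71 to -5.03 under all alternatives. It is lost as well without WT replicates 2 and 4, where lymphatic markers were lowest (log2 fold change of -5.71), a set left out after seeing the data.

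Other endothelial genes of the same LEC libraries did not share this pattern in full. Pecam1 was at 342, 189, 325 and 247 FPKM in WT, 291, 398 and 238 in 5xFAD and 212, 269 and 249 in 5xFAD+L, with overlapping groups. Kdr was at 204, 232, 39.8 and 146 in WT, 30.9, 19.0 and 62.6 in 5xFAD and 26.0, 32.2 and 55.2 in 5xFAD+L, so 3 of 4 WT libraries were above all others and the light-treated libraries overlapped the untreated 5xFAD libraries. It passed in DESeq2 for 5xFAD versus WT (-2.29) and 5xFAD+L versus WT (-2.28), and not in edgeR or limma. Of the other blood endothelial markers, Flt1 (-0.72), Cldn5 (-0.69) and Cdh5 (-0.45) had negative values for 5xFAD+L versus WT and Vwf a positive one (0.42). These passed in none of the 3 tools. The sums of the 8 smooth muscle and pericyte markers were 35.1, 0.19, 79.6 and 493 FPKM in WT, 426, 625 and 29.0 in 5xFAD and 13.3, 62.9 and 55.6 in 5xFAD+L, with overlapping groups. All 5 tested had negative values for 5xFAD+L versus 5xFAD and 3 of 5 for 5xFAD+L versus WT, where Rgs5 had an unadjusted p below 0.05 (-6.08 ± 2.75, adjusted p = 0.74), and none passed in any of the 3 tools. The fibroblast marker Col1a2 passed in DESeq2, and not in edgeR or limma, for 5xFAD versus WT (11.08) and 5xFAD+L versus WT (10.63). Dcn, also of fibroblasts, passed in none of the 3 tools (-0.70 and 0.65 in edgeR). The part of all these markers in the levels of Pde2a was not tested. The readthrough gene Gm45837, which shares the Pde2a locus and strand, was at 8.78, 0, 6.92 and 10.2 FPKM in WT and at 0 in the other 6 libraries. Adding its counts to Pde2a gave a log2 fold change of -5.51 for 5xFAD+L versus WT.

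**Figure D2:**
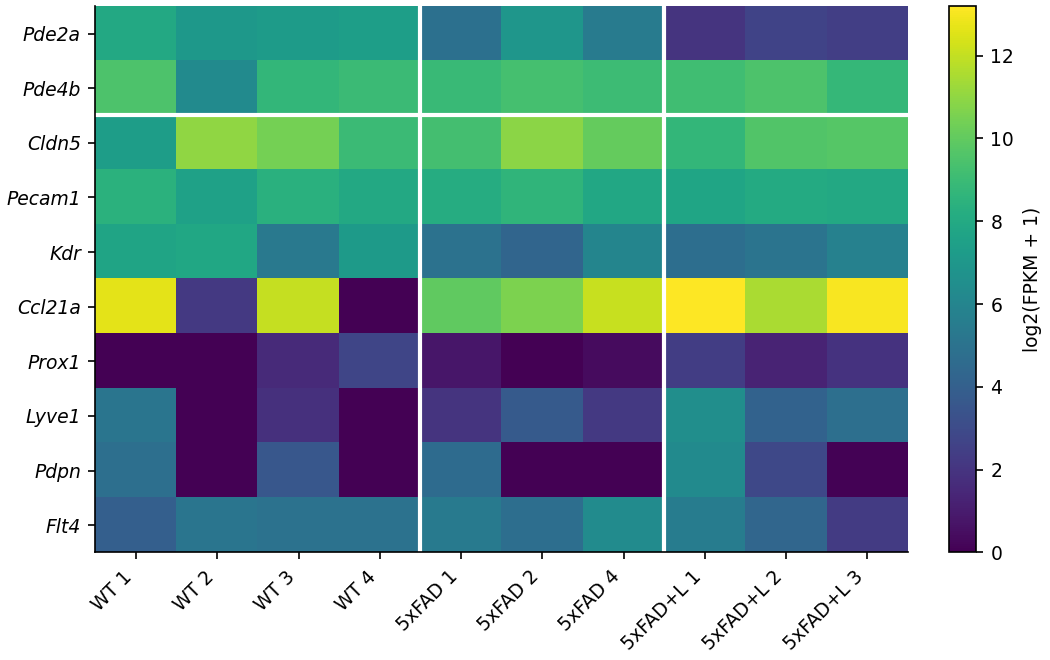
Pde2a and Pde4b (above the line) and endothelial and lymphatic genes (below the line) in the 10 sorted LEC libraries, as log2(FPKM + 1). White lines separate WT, 5xFAD and 5xFAD+L libraries.

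Outside the sorted cells, Pde2a in hippocampus was at 112, 97.5, 89.4 and 105 FPKM in WT, 114, 90.6, 75.4 and 136 in 5xFAD and 70.5, 80.4, 101 and 83.6 in 5xFAD+L. It was high throughout and the groups overlapped, with log2 fold changes of 0.05 ± 0.16 (adjusted p = 0.88), -0.30 ± 0.16 (adjusted p = 0.34) and -0.25 ± 0.16 (adjusted p = 0.47) for 5xFAD versus WT, 5xFAD+L versus 5xFAD and 5xFAD+L versus WT. In meninges it was at 7.98, 5.18, 8.39 and 4.96 in WT, 2.22, 5.43 and 9.45 in 5xFAD and 7.04, 9.13 and 4.87 in 5xFAD+L. These groups overlapped too, and light-treated meninges were not low.

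Pde3a in meninges was at 0.91, 0.48, 2.04 and 0.97 FPKM in WT, 2.07, 0.65 and 1.67 in 5xFAD and 1.03, 1.16 and 1.37 in 5xFAD+L, with overlapping groups. In sorted LECs Pde3a was at 4.98, 8.12, 2.40 and 0 in WT, 1.33, 3.93 and 1.88 in 5xFAD and 1.27, 1.78 and 0.54 in 5xFAD+L. The highest libraries there were WT and the groups overlapped.

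Of the calmodulin-dependent members, Pde1a in hippocampus was at 65.2, 58.9, 65.0 and 59.1 FPKM in WT, 42.5, 43.1, 48.6 and 76.1 in 5xFAD and 28.2, 26.6, 43.6 and 40.7 in 5xFAD+L. Every light-treated sample lay below every WT sample, and the untreated 5xFAD group overlapped both. The log2 fold change for 5xFAD+L versus WT was -0.76 ± 0.19 (adjusted p = 0.042), under the 2-fold threshold, against -0.56 ± 0.19 for 5xFAD+L versus 5xFAD (adjusted p = 0.16) and -0.20 ± 0.19 for 5xFAD versus WT (adjusted p = 0.56). Over the alternatives, the value for 5xFAD+L versus WT was -0.89 to -0.64. The adjusted p of their tests was 0.0028 to 0.13, so it was not below 0.05 in all of them. The p of the members in hippocampus carries the caveat that the list was made with earlier results of these data known. In meninges Pde1a was at 9.96 to 15.4 FPKM in WT, 8.77 to 13.3 in 5xFAD and 10.4 to 13.7 in 5xFAD+L, and in sorted LECs it was at 0 in 6 of 10 libraries.

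Pde1b in hippocampus was at 26.8, 25.1, 16.5 and 29.7 FPKM in WT, 22.2, 25.0, 17.5 and 19.3 in 5xFAD and 40.4, 47.9, 27.8 and 24.7 in 5xFAD+L. The 2 highest samples were light-treated, and the lowest light-treated sample lay just below the highest untreated 5xFAD sample, so the ranges overlapped. It gave 0.75 ± 0.19 for 5xFAD+L versus 5xFAD (adjusted p = 0.085), 0.55 ± 0.19 for 5xFAD+L versus WT (adjusted p = 0.15) and -0.21 ± 0.19 for 5xFAD versus WT (adjusted p = 0.54), and none passed. The 2 calmodulin-dependent members differ in the sign of their values with light in hippocampus, with Pde1a lower and Pde1b higher. In meninges Pde1b was at 2.28 to 6.20 FPKM in WT, 2.69 to 4.12 in 5xFAD and 2.31 to 7.20 in 5xFAD+L.

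**Figure D3:**
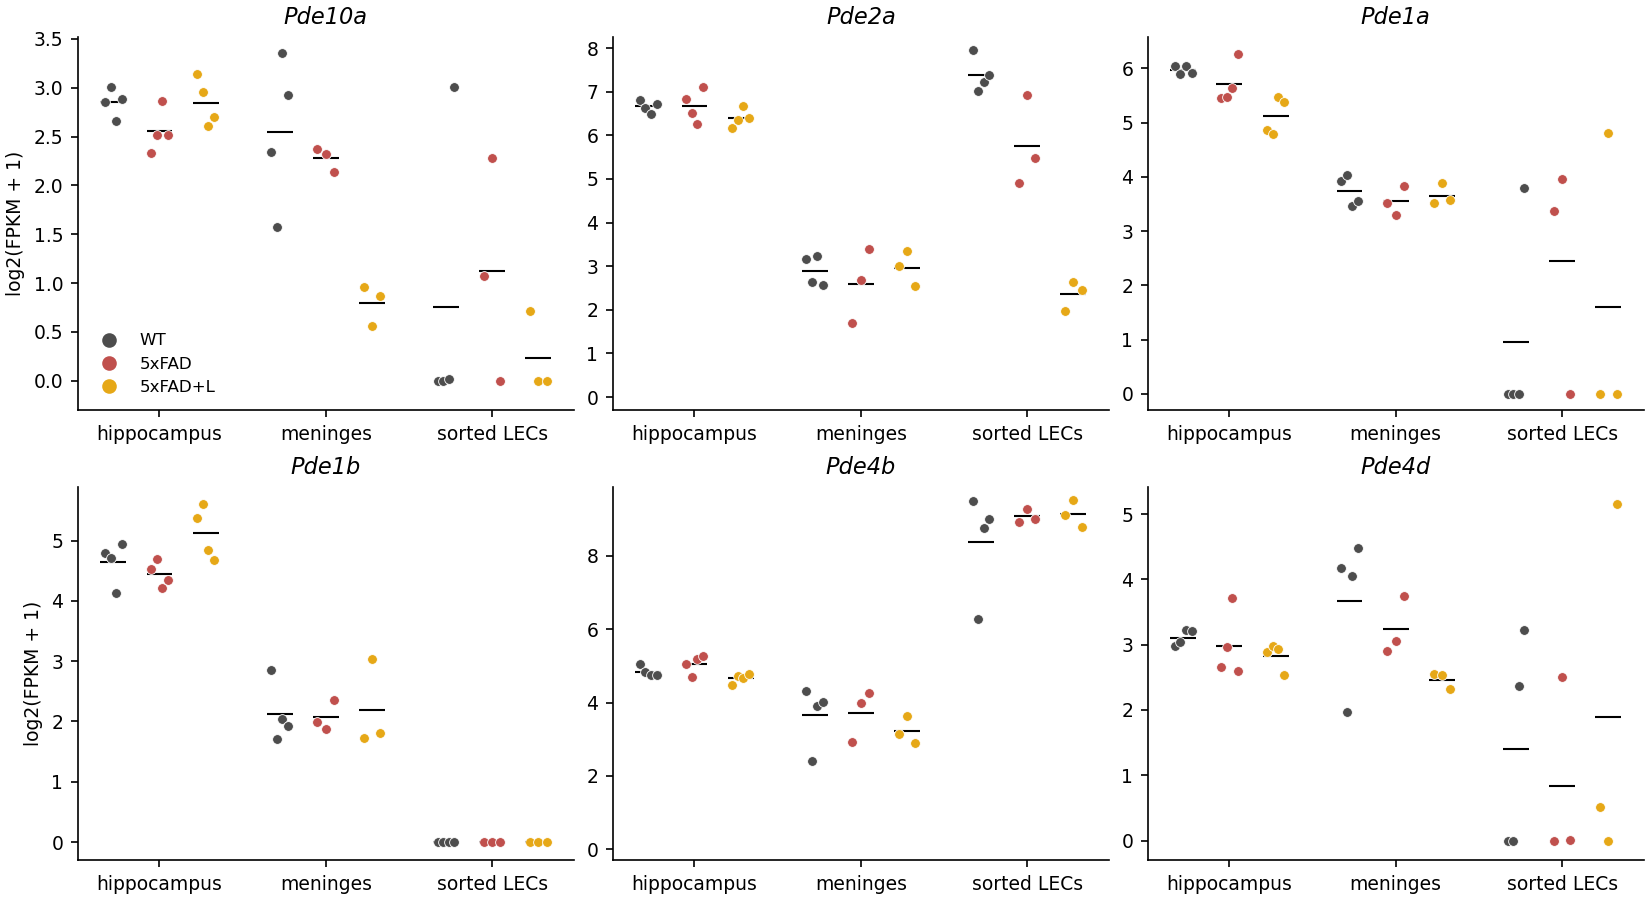
Levels of Pde10a, Pde2a, Pde1a, Pde1b, Pde4b and Pde4d in each sample, by tissue and group, as log2(FPKM + 1). Bars are group means. Levels of sorted LECs come from a separately normalized table.

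Among the cAMP-specific members, Pde4b was the most abundant in sorted LECs, at 727, 77.1, 429 and 516 FPKM in WT, 485, 624 and 519 in 5xFAD and 556, 740 and 442 in 5xFAD+L. It was high in 9 of the 10 libraries and low only in WT replicate 2, and the groups overlapped, so Pde4b stayed high in the light-treated libraries in which Pde2a was low. In hippocampus it was at 32.1, 27.4, 26.1 and 26.0 in WT, 32.4, 24.7, 35.8 and 37.6 in 5xFAD and 21.2, 25.5, 24.6 and 26.5 in 5xFAD+L, with log2 fold changes of 0.18 ± 0.12 for 5xFAD versus WT (adjusted p = 0.39) and -0.40 ± 0.12 for 5xFAD+L versus 5xFAD (adjusted p = 0.13). The 3 highest hippocampus samples were 5xFAD, and the ranges overlapped. In meninges Pde4b was at 4.32 to 18.9 FPKM in WT, 6.52 to 18.3 in 5xFAD and 6.44 to 11.3 in 5xFAD+L.

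Pde4d in meninges was at 17.1, 2.91, 15.6 and 21.3 FPKM in WT, 6.47, 7.32 and 12.4 in 5xFAD and 4.83, 4.77 and 3.98 in 5xFAD+L. All light-treated samples lay below all untreated 5xFAD samples and below 3 of the 4 WT samples, with WT replicate 2 lower still. The log2 fold changes are -1.06 ± 0.55 for 5xFAD+L versus 5xFAD and -1.84 ± 0.54 for 5xFAD+L versus WT, as description only. Within the same description, Pde4d passes in DESeq2 for 5xFAD+L versus WT (-1.87), but not in limma or in edgeR with the main settings. WT replicate 2 also had the lowest Pde10a, Pde4b and Pde7b of the WT meninges. In hippocampus Pde4d was at 6.89 to 8.31 FPKM in WT, 5.06 to 12.1 in 5xFAD and 4.81 to 6.89 in 5xFAD+L, with adjusted p of 0.78, 0.62 and 0.47 for 5xFAD versus WT, 5xFAD+L versus 5xFAD and 5xFAD+L versus WT.

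Pde7b in meninges was at 13.2, 8.72, 12.9 and 14.7 FPKM in WT, 6.83, 10.1 and 9.35 in 5xFAD and 7.94, 6.99 and 6.19 in 5xFAD+L. The light-treated samples all lay below the WT samples and overlapped the 5xFAD samples (log2 fold change of -0.85 ± 0.23 for 5xFAD+L versus WT, as description). In hippocampus Pde7b was at 3.37, 4.31, 2.44 and 4.59 in WT, 1.10, 3.83, 5.52 and 1.92 in 5xFAD and 5.36, 6.36, 4.46 and 4.53 in 5xFAD+L, where the groups overlapped and 5xFAD+L versus 5xFAD gave 0.66 ± 0.36 (adjusted p = 0.35). In sorted LECs Pde4d and Pde7b were highest in the same light-treated library, replicate 3, at 34.8 and 38.9 FPKM, and at or below 0.43 and 0.01 in the other light-treated libraries.

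Pde8b in hippocampus was at 8.39 to 11.3 FPKM in WT, 8.76 to 15.9 in 5xFAD and 9.70 to 14.9 in 5xFAD+L, with adjusted p of 0.78, 0.61 and 0.46 for 5xFAD versus WT, 5xFAD+L versus 5xFAD and 5xFAD+L versus WT. In meninges it was at 9.83, 7.50, 15.0 and 6.33 in WT, 8.70, 8.08 and 4.90 in 5xFAD and 4.36, 15.0 and 16.1 in 5xFAD+L, with the lowest and the highest sample of the tissue in the same light-treated group. The cGMP-specific Pde5a in meninges was at 3.04, 4.44, 5.26 and 4.88 in WT, 6.42, 4.07 and 6.00 in 5xFAD and 2.86, 3.60 and 4.44 in 5xFAD+L. Its 2 highest samples were 5xFAD, and the groups overlapped. In sorted LECs Pde5a was above 1 FPKM only in WT replicate 2, at 1.11.

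The medians of the tested members stayed near those of all tested genes in hippocampus: -0.13 against 0.01 for 5xFAD versus WT, -0.021 against -0.016 for 5xFAD+L versus 5xFAD and -0.0036 against -0.0015 for 5xFAD+L versus WT, as log2 fold changes. In meninges they were -0.10 against -0.0029, -0.37 against 0.04 and -0.19 against 0.01 for the same comparisons. For 5xFAD+L versus 5xFAD in meninges, 7 members had a negative and 3 a positive value. These meninges medians and signs are description only, because the members were listed with earlier results of these data known.

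Of the 14 other phosphodiesterase genes, in WT meninges against WT hippocampus, 11 were tested and 6 passed, against 50.0% of all tested genes: Pde6g (log2 fold change of 11.22 ± 0.42), Pde6b (10.72 ± 0.41), Pde6c (8.72 ± 0.51), Pde1c (2.49 ± 0.32) and Pde8a (1.67 ± 0.34) were higher in meninges, and Pde4a (-1.97 ± 0.31) was lower, with the largest adjusted p, 0.0012, for Pde8a. Pde6g was at 818, 893, 1057 and 1036 FPKM in WT meninges, 1052, 960 and 161 in 5xFAD and 443, 809 and 869 in 5xFAD+L, above every listed member. Pde6b, Pde6c and Pde6g encode parts of the photoreceptor enzyme, which is also made in the pineal gland. The low Pde6g of 5xFAD replicate 4 lay beside the lowest pinealocyte marker sum, 273 FPKM against 677 to 1686 in the other samples, and Pde6b and Pde6c were lowest in that sample too, at 8.29 and 5.85 FPKM.

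In the comparisons of the 3 groups, none of the other phosphodiesterases passed in edgeR, DESeq2 or limma. Unadjusted p was below 0.05 only for Pde3b in hippocampus, 5xFAD versus WT (0.62 ± 0.22, adjusted p = 0.10), Pde11a in hippocampus, 5xFAD+L versus WT (-0.97 ± 0.44, adjusted p = 0.29), Pde8a in meninges, 5xFAD+L versus WT (-0.93 ± 0.32, adjusted p = 0.19), and Pde8a (-1.11 ± 0.34, adjusted p = 0.29), Pde6d (0.72 ± 0.27, adjusted p = 0.33) and Pde7a (-1.08 ± 0.41, adjusted p = 0.33) in meninges, 5xFAD+L versus 5xFAD. Pde4a and Pde6d were the most abundant of the 14 in WT hippocampus, at means of 40.8 and 40.6 FPKM. In WT sorted LECs Pde6d (18.6), Pde9a (12.2) and Pde8a (6.37) had the highest means, each with a WT library at 0. Pde4c, Pde6a and Pde6h had group means below 1 FPKM everywhere except for Pde6a in light-treated meninges, at 1.12.

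The cyclases, which make the substrates, were compared between the WT tissues too, where 50.0% of all tested genes passed. Of 9 tested of the 10 adenylyl cyclases, 6 passed, among them Adcy1 (-3.59) and Adcy8 (-2.13) lower and Adcy4 (3.56), Adcy7 (2.00) and Adcy6 (1.87) higher in meninges. Of 6 tested of the 8 guanylyl cyclases, 5 passed, with the soluble subunits Gucy1b1 (-2.67) and Gucy1a2 (-2.21) lower and the membrane cyclases Gucy2e (2.62), Npr2 (2.05) and Npr1 (1.93) higher. Npr1 and Npr2 bind natriuretic peptides, and Adcy1 and Adcy8 are activated by calcium and calmodulin.

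In the comparisons of the 3 groups, no cyclase passed in edgeR, DESeq2 or limma. Unadjusted p was below 0.05 in hippocampus for Adcy3 and Adcy5 in 5xFAD versus WT (-0.43 and 0.31), for Adcy1 and Adcy9 in 5xFAD+L versus 5xFAD (1.00 and 0.36) and for Adcy3, Adcy1 and Adcy2 in 5xFAD+L versus WT (-0.53, 0.93 and 0.36). Of the guanylyl cyclases it was below 0.05 for Gucy1a2 in hippocampus, 5xFAD versus WT (-0.60), and in meninges for Npr2 in 5xFAD+L versus 5xFAD (-0.73) and Gucy1a1 in 5xFAD+L versus WT (0.81). In sorted LECs only 1 adenylyl and 2 guanylyl cyclases were abundant enough to test.

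Of the 23 cyclic nucleotide effectors, 20 were tested between the WT tissues and 14 passed, 7 in each direction, against 50.0% of all tested genes. The channel genes Cngb3 (10.37), Cngb1 (8.03), Cnga2 (7.66) and Cnga4 (3.73) were higher and Rapgef4 (-5.16) was lower in meninges. In the comparisons of the 3 groups none passed in edgeR or limma, and DESeq2 passed 1, Hcn2, in meninges for 5xFAD+L versus WT, where it passed 2.60% of all genes. The smallest unadjusted p in hippocampus were those of Pkia, Rapgef3 and Prkg1 in 5xFAD versus WT (-0.45, 0.45 and -0.45, adjusted p = 0.061, 0.079 and 0.11) and of Prkg1, Prkar1b and Pkia in 5xFAD+L versus 5xFAD (0.54, -0.29 and 0.41, adjusted p = 0.13, 0.15 and 0.16). Hcn2 had the smallest in meninges, with -1.82 ± 0.62 for 5xFAD+L versus 5xFAD (adjusted p = 0.31) and -2.57 ± 0.61 for 5xFAD+L versus WT (adjusted p = 0.12).

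All 12 genes of the cAMP and CREB target list were tested in hippocampus. Nr4a2 was at 21.3, 21.1, 16.1 and 19.0 FPKM in WT, 16.5, 12.6, 8.79 and 12.6 in 5xFAD and 7.03, 8.41, 10.9 and 7.40 in 5xFAD+L. All light-treated samples lay below all WT samples, and the 5xFAD samples overlapped both groups. It passed for 5xFAD+L versus WT (-1.23 ± 0.17, adjusted p = 0.00086). Fos passed for 5xFAD versus WT in edgeR (1.07 ± 0.29, adjusted p = 0.038) and in DESeq2 but not in limma, at 30.9, 21.0, 33.2 and 9.91 FPKM in 5xFAD against 10.5 to 12.8 in WT, so 3 of the 4 5xFAD samples were above and 1 was below all WT samples. Some cell type markers were also higher in this comparison: all 5 tested of the 7 macrophage and leukocyte markers passed in edgeR, DESeq2 and limma (Lyz2 3.56, Ptprc 2.40, Aif1 1.92, Pf4 1.63 and Csf1r 1.20), and in edgeR so did 2 of 5 fibroblast markers (Col1a2 1.83 and Col1a1 1.01) and 1 of 5 tested smooth muscle and pericyte markers (Tagln 1.80). The sums of the 7 macrophage and leukocyte markers were 75.3, 69.8, 62.1 and 64.1 FPKM in WT, led by Csf1r, 394, 261, 222 and 357 in 5xFAD and 184, 182, 306 and 302 in 5xFAD+L, led by Lyz2, with no marker at 0. For 5xFAD+L versus WT, 4 of these 5 passed in all 3 tools (Lyz2 3.17, Ptprc 2.23, Aif1 1.49 and Csf1r 1.06). Their part in the values of Fos and Nr4a2 was not tested. For 5xFAD+L versus 5xFAD, 11 of the 12 had negative values (median of -0.63 against -0.02 for all genes), with unadjusted p below 0.05 for 8, all negative, against 18.3% of all genes, with 0 past the thresholds in edgeR and limma, and 1 in DESeq2, which passed 1.48% of all genes. Markers of other cell types were also lower in this comparison without passing in edgeR, among them Ttr (-3.74), Kcnj13 (-3.53) and Folr1 (-3.31) of choroid plexus, Dcn (-2.01), Col1a2 (-1.56) and Col1a1 (-1.21) of fibroblasts, Tagln (-1.36) and Pf4 (-1.36). DESeq2 passed 3 of 6 choroid plexus, 2 of 5 fibroblast and 1 of 5 smooth muscle and pericyte markers there, and limma 0. The target genes with the smallest p were Nr4a2 (-0.62), Crem (-0.46) and Fosb (-1.87), each with adjusted p of 0.11 or 0.12.

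In meninges, 10 of 11 tested target genes had negative values for 5xFAD+L versus 5xFAD (median of -1.02 against 0.04) and none passed in edgeR or limma, against 1 in DESeq2, which passed 0.503% of all genes. Nr4a3, the gene passed by DESeq2, had the smallest unadjusted p (-3.60 ± 0.66, adjusted p = 0.22), then Per1 (-1.65 ± 0.60, adjusted p = 0.32) and Nr4a2 (-1.49 ± 0.65, adjusted p = 0.37). For 5xFAD+L versus WT, 10 of 11 were negative too (median of -0.93 against 0.01), and Nr4a3 again passed in DESeq2 (-3.73, adjusted p = 0.00012), which passed 2.60% of all genes, and not in edgeR (-3.68 ± 0.65, adjusted p = 0.081) or limma. It was at 0.89, 1.29 and 0.39 FPKM with light, and at 2.59 or more in all other meninges samples. Neuron markers were also lower in part: Camk2a had -1.67 for 5xFAD+L versus 5xFAD and -2.16 versus WT, and Slc17a7 -1.36 and -1.61. Going the other way versus 5xFAD were Snap25 (0.31, and -0.04 versus WT) and Gad1 (0.48, and -1.48 versus WT). The part of neuron markers in the values of the target genes was not tested. In sorted LECs, unadjusted p was below 0.05 for Nr4a2 (-4.10), Junb (-2.33) and Egr1 (-1.85) in 5xFAD versus WT, next to 3.81% of all genes. In 5xFAD+L versus WT it was below 0.05 for Junb (-2.38), Nr4a1 (-1.74) and Egr1 (-1.70), next to 6.72% of all genes. None passed in edgeR or limma, against 2 and 1 in DESeq2, which passed 2.22% and 5.59% of all genes there. Both comparisons include the 2 WT libraries of lowest lymphatic markers. For 5xFAD+L versus 5xFAD in sorted LECs, unadjusted p was below 0.05 only for Nr4a2, with a positive value (2.62), next to 4.01% of all genes. No target gene passed there in edgeR, DESeq2 or limma. Between the WT tissues 7 of 12 passed, against 50.0% of all tested genes, led by Bdnf (-5.54), Sik1 (3.74), Dusp1 (2.13), Nr4a1 (1.82) and Fos (1.59).

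The genes whose levels followed Pde10a most closely over the 10 meninges samples, as a description, were Csnk1e (r = 0.979), Ago2 (0.978), Mast4 (0.973), Mafg (0.970), Spen (0.968) and Prrc2b (0.965). The group means of all 6 were highest in WT and lowest in 5xFAD+L, for Csnk1e 17.9 FPKM in WT, 13.7 in 5xFAD and 7.83 in 5xFAD+L and for Spen 2.45, 2.36 and 0.95. The 6 were picked for following Pde10a in these same samples, so the shared order comes with the choice. Over the 12 hippocampus samples the closest genes were Arhgap21 (0.963), Sipa1l1 (0.963), Ylpm1 (0.940), Dmxl2 (0.933), Klhl8 (0.918) and Scaf8 (0.908). No gene is in both lists, and none is a striatal projection neuron marker. Of those markers only Rgs9 and Ppp1r1b were tested in meninges.

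The promoters of the members were searched for the cAMP response element TGACGTCA and its core TGACG, on both strands, in the 300-base promoter windows of RefSeq genes on build GRCm38.p6. For 9 members 26 windows were available, with none for Pde3a. The full element was in 0 of the 26, against 588 of all 32851 windows (1.79%), and the core was in 4, in 1 window each of Pde1a, Pde4b, Pde2a and Pde8b, against 6837 of all (20.8%). The Pde2a window with the core, in capitals on the opposite strand as CGTCA, is on the plus strand of chromosome 7 from 101450270 to 101450569:

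Pde2a: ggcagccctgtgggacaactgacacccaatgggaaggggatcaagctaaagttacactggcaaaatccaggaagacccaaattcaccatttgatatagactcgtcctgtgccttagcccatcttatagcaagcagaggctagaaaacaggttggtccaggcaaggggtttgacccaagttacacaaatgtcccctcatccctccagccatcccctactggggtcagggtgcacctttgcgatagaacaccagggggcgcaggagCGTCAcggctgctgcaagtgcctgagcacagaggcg

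Neither of the 2 Pde10a windows, on the plus strand of chromosome 17, has a match. The window from 8849735 to 8850034 has a GC content of 56.7%, against a median of 52.7% for all windows. The window from 8801495 to 8801794 has a GC content of 71.3%:

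Pde10a: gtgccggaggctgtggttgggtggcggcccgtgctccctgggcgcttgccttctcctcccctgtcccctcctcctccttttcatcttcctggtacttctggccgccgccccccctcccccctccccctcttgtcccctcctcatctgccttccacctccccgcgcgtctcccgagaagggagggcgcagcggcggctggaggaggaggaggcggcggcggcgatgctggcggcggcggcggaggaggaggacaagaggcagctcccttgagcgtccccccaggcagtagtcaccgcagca

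Pde2a is on the plus strand of chromosome 7 from 101421691 to 101512827, with 12 annotated transcripts in GENCODE vM21, and Pde10a on the plus strand of chromosome 17 from 8525372 to 8986648, with 14. Which transcripts make up their levels cannot be read from gene-level tables.

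Limits apply to all of the above. The groups have 3 or 4 mice, and in sorted LECs a spiked 4-fold change was recovered for 0 of 200 genes, against 149 of 200 in meninges and 191 of 200 in hippocampus, so a member that did not pass in LECs may still differ. Counts of 0 are frequent in the sorted libraries, where 5998 to 9020 genes had a read, against 16371 to 18264 in hippocampus. RNA level is not enzyme activity, and neither cAMP nor cGMP was measured.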

How the data were processed

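RNA-seq of 32 samples was analysed from 2 deposited tables, 1 for 22 hippocampus and meninges samples and 1 for 10 sorted LEC samples, joined by gene id. The deposited expected counts and FPKM were made by the authors. The paper names fastp and RSEM, while the labels name Trimmomatic, HISAT2, StringTie and build mm10. Expected counts were rounded to whole numbers. Depth was 13952825 to 23856476 counts in hippocampus, 6601143 to 14708202 in meninges and 14231415 to 24207326 in LECs. Tests were made only within a table.

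Genes at 1 FPKM in at least 3 samples of a tissue were tested with edgeR 4.0.16 quasi-likelihood fits (R 4.3.3, TMM, the 3 groups of a tissue in 1 fit), and p was adjusted by Benjamini-Hochberg over all tested genes. A gene passes at adjusted p below 0.05 with at least a 2-fold change. Values after ± are standard errors. Fits were tested on counts with changes put in. Alternatives were RLE factors, other filters, only the groups compared, a replicate block, DESeq2 1.42.0, limma 3.58.1 on log2(FPKM + 1) and log2(FPKM + 0.1), no fold threshold and each replicate left out.

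The members and lists were chosen with earlier results of these data known, and it is not recorded which values chose the members. Meninges and LEC contrasts of members are therefore description only. Named are all members, all other phosphodiesterases, up to 5 genes passing in edgeR of each other pathway list with the largest change or else up to 3 with the smallest p, and the 6 genes most correlated with Pde10a in each tissue. The pathway lists are other phosphodiesterases, adenylyl cyclases, guanylyl cyclases, cyclic nucleotide effectors, and cAMP and CREB targets. Cell type markers have no such rule. No protein sequences were available, so the planned protein stretch was left out.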

Additional observations from a re-analysis of the deposited data

Results flagged for a closer look

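In groups of 4, a sample was flagged when its gap to the nearest other sample, as a share of the group's range, exceeded Dixon's critical value. Of 79 such groups of tested phosphodiesterases 8 were flagged, and chance alone flags about 1 in 20. In WT sorted LECs, Pde10a was at 7.04 FPKM in replicate 4 against 0 to 0.01 in the others, and Pde1a at 12.9 in the same replicate against 0. Pde8a was at 24.9 in WT LEC replicate 3 against 0 to 0.57.

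In hippocampus, Pde8b was at 15.9 in 5xFAD replicate 3 against 8.76 to 9.91 and Pde3b at 0.83 in 5xFAD replicate 4 against 1.51 to 1.64. With light, Pde3b was at 0.91 in replicate 3 against 1.16 to 1.17 and Pde7a at 2.48 in replicate 1 against 1.38 to 1.48. In WT meninges, Pde11a was at 0.83 in replicate 4 against 1.83 to 1.96. The cause was not tested for any of these. No member moved in opposite directions in all samples of 2 tissues, and no deposited column was left unanalysed.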

How the results depend on the processing

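The count of members past both thresholds kept to 0 under every alternative for 5xFAD versus WT in all 3 tissues and for 5xFAD+L versus 5xFAD in hippocampus. For 5xFAD+L versus WT in hippocampus it was 1 (Pde1a) with no fold threshold, which by construction admits smaller changes. In meninges, 5xFAD+L versus 5xFAD gave 1 in DESeq2. In meninges, 5xFAD+L versus WT gave 1 with no filter, 2 in DESeq2 (Pde10a and Pde4d) and 0 to 2 with a replicate left out. In sorted LECs, 5xFAD+L versus 5xFAD gave 1 with no filter and 1 in DESeq2. There, 5xFAD+L versus WT gave 0 in limma on log2(FPKM + 0.1), 0 without the 2 WT libraries of fewest genes, 0 without the 2 WT libraries of lowest lymphatic markers and 0 to 1 with a replicate left out, which also leaves fewer samples. The sets of 2 libraries and the sum of Pde2a with Gm45837 were chosen after seeing the data. Apart from these, the cause was not tested. Between the WT tissues the count was 4 to 8, against 6, with Pde4b lost at a mean of 5 FPKM and without WT meninges replicate 2. Over the alternatives there, log2 fold changes were 0.56 to 1.33 for Pde4d and -1.25 to -0.30 for Pde10a. Both thus exceed 2-fold in part of the alternatives and not with the main settings.

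With a replicate left out, log2 fold changes in hippocampus changed sign for 5xFAD versus WT in Pde2a (-0.08 to 0.18), Pde4d (-0.45 to 0.02), Pde7b (-0.59 to 0.14) and Pde8b (-0.12 to 0.18), and for 5xFAD+L versus 5xFAD in Pde4d (-0.37 to 0.10). Among the values given as description, the sign changed under 26 alternatives in meninges and 35 in LECs, and never in the log2 fold changes printed for Pde10a in meninges or Pde2a in LECs. The cause was not tested.

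Same-numbered samples share only a number: their deviations correlated from -0.31 to 0.24 over 33 pairs. With the replicate block the counts were 0 in hippocampus and meninges, 0, 0 and 1 in LECs and 7 between the WT tissues. Few genes had a read in the LEC libraries (5998 to 9020).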
